A study of Mus musculus with 8 samples.

Results

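The Hoxb cluster of the mouse was examined for binding of CTCF and of the cohesin subunit Smc3. The region comprised the 10 Hoxb genes on chromosome 11, from 96194316 to 96368254 in the build mm10, and 200 kb on each side of them. All peaks whose summit fell in this window were taken, which gave 218 of the 254001 peaks in 4 lists. The C59 CTCF list had 64 of its 82227 peaks in the window, the WT CTCF list 82 of 98759, the C59 Smc3 list 31 of 25734 and the WT Smc3 list 41 of 47281.

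The study used chromatin immunoprecipitation followed by sequencing in JM8.N4 cells, a mouse embryonic stem cell line. C59 was 1 clone in which both copies of the Ctcf gene encode FLAG-Halo-CTCF and both copies of Rad21, another cohesin subunit, encode Rad21-SNAPf-V5. WT was the unmodified line. Both were grown without feeder cells in serum and LIF, and each line gave 1 CTCF library and 1 Smc3 library, so no difference between the lines could be tested. A peak missing from a list lay below the threshold its authors used, which leaves weaker binding there unmeasured.

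Hox genes encode homeodomain transcription factors that set the identity of segments along the head to tail axis. Their order on the chromosome broadly matches their order of expression along that axis. The Hoxb1 end is used early and anteriorly, and Hoxb13 late and posteriorly. CTCF recognises a long DNA motif through its array of zinc fingers. Cohesin, a ring of Smc1a, Smc3, Rad21 and a further subunit, extrudes chromatin loops and tends to stop where CTCF is bound. In embryonic stem cells the Hox clusters are largely silent and lie in Polycomb chromatin.

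The letters under a peak could be read for promoters in the RefSeq table of build GRCm38.p6, which gave 13 promoter windows in the region. Hoxb8, Hoxb4 and Hoxb1 were among them, and none of these 3 windows held a CTCF or Smc3 peak summit. The 250 bases before the annotated start are shown for Ttll6 and Hoxb3os, since these windows held both a CTCF summit and a match to a CTCF core pattern, and for Ube2z, which held a CTCF summit and no match. The Ube2z summits, at 96065349 in C59 and 96065364 in WT, lay just past the printed bases, into which their peaks reached. Capitals mark the matches as they read on the strand of the gene. Each sequence runs 5′ to 3′.
Ttll6, plus strand, chr11:96133536-96133785: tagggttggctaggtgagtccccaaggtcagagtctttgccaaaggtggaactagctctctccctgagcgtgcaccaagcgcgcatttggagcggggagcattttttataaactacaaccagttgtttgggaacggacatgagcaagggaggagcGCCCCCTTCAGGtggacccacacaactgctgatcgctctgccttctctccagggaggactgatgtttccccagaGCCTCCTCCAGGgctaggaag
Hoxb3os, minus strand, chr11:96353395-96353644: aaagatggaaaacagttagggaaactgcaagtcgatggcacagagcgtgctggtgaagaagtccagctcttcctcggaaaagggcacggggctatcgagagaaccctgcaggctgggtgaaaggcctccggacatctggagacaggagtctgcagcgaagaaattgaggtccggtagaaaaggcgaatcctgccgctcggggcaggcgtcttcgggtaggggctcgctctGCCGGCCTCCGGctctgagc
Ube2z, minus strand, chr11:96065365-96065614: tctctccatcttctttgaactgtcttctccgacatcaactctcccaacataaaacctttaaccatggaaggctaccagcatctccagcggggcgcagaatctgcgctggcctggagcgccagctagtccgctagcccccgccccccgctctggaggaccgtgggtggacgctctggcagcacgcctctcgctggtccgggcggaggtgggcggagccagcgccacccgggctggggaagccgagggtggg

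A pair of patterns of 12 letters was searched on both strands, CCNNNAGNNGGC and CCNNNGGNNGGC, which differ at one fixed letter and so cannot match at the same place. The first was present in 8.61% of all 32851 promoter windows, which run from 250 bases before the start to 50 after it, and the second in 9.43%. Among the 2326 windows with a WT CTCF summit the shares were 33.3% and 18.8%. Ttll6, which encodes a tubulin polyglutamylase, held the first pattern at 2 places, both on the strand opposite to the gene. Its summits were at 96133717 in C59 and 96133696 in WT, which put one match 15 bp from the C59 summit and under the WT summit. Hoxb3os, an antisense RNA gene whose upstream bases lie within Hoxb2, held the second pattern 102 bp from a CTCF summit found in WT alone. Atp5g1, not printed, held the first pattern at 1 place, and its promoter window overlapped no CTCF or Smc3 peak of either line. A match is a description of letters and not of a bound site.

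The cluster also holds a pair of microRNA genes that repress Hox and other transcripts, shown with the seed, bases 2 to 8, in capitals. The seeds differ.
miR-196a-5p, from Mir196a-1: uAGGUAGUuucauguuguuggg
miR-10a-5p, from Mir10a: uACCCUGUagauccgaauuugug

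Mir196a-1, between Hoxb13 and Hoxb9, had the nearest CTCF summit 645 bp away in C59, with a fold of 7.20, and 703 bp away in WT, with a fold of 7.76. No Smc3 peak overlapped this CTCF peak in either line. Mir10a, beside Hoxb4, had its nearest CTCF summit 5447 bp away in C59 and 5440 bp away in WT. The fold here and below is the fold enrichment that the authors' peak caller gave each peak over its local background, and it describes the strength of a peak within its own list.

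Peaks were denser in the window than along chromosome 11. CTCF peaks numbered 11.2 per 100 kb in C59 and 14.3 in WT, beside 5.80 and 6.66 over chromosome 11. Smc3 peaks numbered 5.40 per 100 kb in C59 and 7.14 in WT, beside 1.98 and 3.17 over the chromosome. The density was not even. The 200 kb before Hoxb13 held 36 CTCF peaks in C59 and 43 in WT, whereas the 200 kb beyond Hoxb1 held 14 in C59 and 18 in WT. Between the outermost ends of Hoxb13 and Hoxb1, a length of 173.939 kb, there were 14 CTCF peaks in C59 and 21 in WT, and 6 Smc3 peaks in C59 and 12 in WT. The local background at a peak, which its pileup and fold imply, had a median in the window 1.44 times that of peaks on 16 other autosomes for C59 CTCF, 1.27 times for WT CTCF, 1.44 times for C59 Smc3 and 1.25 times for WT Smc3. Over the rest of chromosome 11 these ratios were 1.45, 1.22, 1.50 and 1.25 in the same order of lists. The part of this background in the folds and peak counts was not tested.

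**Figure D1:**
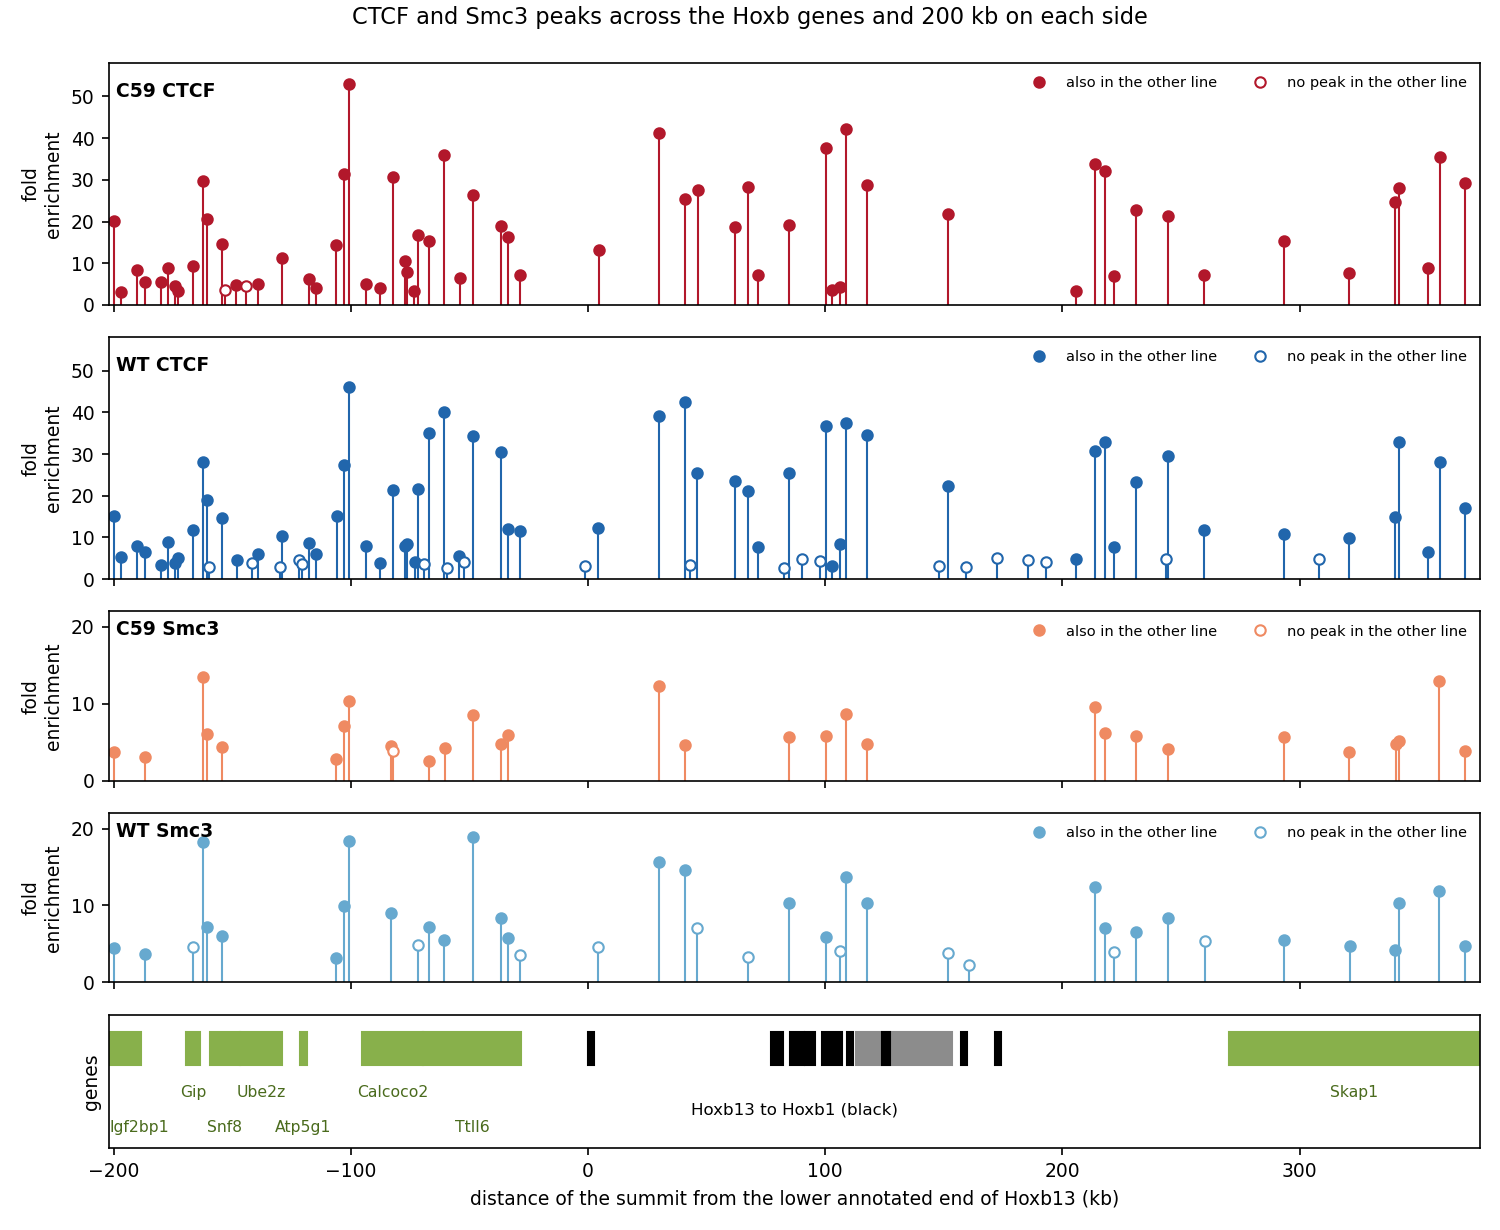
Fold enrichment of every CTCF and Smc3 peak in the window (vertical axes) against distance of its summit from the lower annotated end of Hoxb13 in kb; filled points overlap a peak of the same protein in the other line and open points do not. The open points in WT CTCF all lie low, between 2.76 and 5.15, and the highest CTCF point of both lines, 53.1 in C59 and 46.2 in WT, lies in the flank before Hoxb13.

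Merged over the 4 lists, the peaks fell into 85 sites. Both proteins had a peak in both lines at 30 sites. CTCF had a peak in both lines with no Smc3 in either at 22 sites. At 10 sites CTCF was called in both lines and Smc3 in WT alone, and at 20 sites CTCF was called in WT alone. The remaining sites were 2 with CTCF in C59 alone and 1 with Smc3 in WT alone. Merged sites were counted in the window only. Over the whole lists, 79.8% of WT CTCF peaks and 52.9% of WT Smc3 peaks overlapped a C59 peak of the same protein.

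The stretch from Hoxb13 to Hoxb9, 77.0 kb with no other Hoxb gene in it, held 7 CTCF peaks in C59 and 8 in WT. Hoxb13, the most posterior member, had its nearest CTCF summit 2082 bp away in C59, with a fold of 13.2, at the end of the RNA gene Gm30134. WT had a peak at the same place with a fold of 12.3, and also a weak CTCF peak 1193 bp from Hoxb13 on the other side, with a fold of 3.10. Smc3 was called beside Hoxb13 in WT alone, 1992 bp away with a fold of 4.60. In C59 the nearest Smc3 summit to Hoxb13 lay 27375 bp away.

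That distant site, at 96224013 in C59 and 96224003 in WT, was one of the strongest of the cluster. CTCF had a fold of 41.3 in C59 and 39.2 in WT, and Smc3 a fold of 12.4 in C59 and 15.7 in WT. Among Smc3 peaks between the outermost Hoxb ends it ranked first in both lines. The next site, at 96235128 in C59 and 96235137 in WT, also carried both proteins, with CTCF folds of 25.4 in C59 and 42.5 in WT and Smc3 folds of 4.65 in C59 and 14.6 in WT. Between that site and Hoxb9, 4 more CTCF peaks were called in both lines. Of these, the ones with WT summits at 96240393 and 96261776 had Smc3 in WT alone, with folds of 7.06 and 3.34. Their CTCF folds were 27.5 in C59 and 25.4 in WT at the first, and 28.2 in C59 and 21.2 in WT at the second. The peak at 96256217 in C59 and 96256226 in WT had CTCF folds of 18.6 and 23.5 and no Smc3 in either line, which shows that CTCF peaks of similar fold differed in whether Smc3 was called there. A weak CTCF peak at 96237353, with a fold of 3.39, was called in WT alone.

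The stretch from Hoxb9 to Hoxb5 spans 34.8 kb and holds 5 genes. It had 5 CTCF peaks in C59 and 8 in WT, and 3 Smc3 peaks in C59 and 4 in WT. The strongest lay beside Hoxb5. Its CTCF summit was 286 bp from the lower annotated end of Hoxb5 in C59, with a fold of 42.2, and 275 bp from it in WT, with a fold of 37.4. Smc3 had a fold of 8.70 there in C59 and 13.7 in WT. Hoxb6 carried 3 CTCF summits inside the gene in each line. The strongest of these had CTCF folds of 37.7 in C59 and 36.7 in WT and Smc3 folds of 5.80 in C59 and 5.91 in WT. The other 2 had folds of 3.57 and 4.30 in C59 and of 3.14 and 8.42 in WT. At the second of them Smc3 was called in WT alone, with a fold of 4.11.

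Between Hoxb9 and Hoxb8, a CTCF summit lay 440 bp before the lower annotated end of Hoxb8 in C59, with a fold of 19.2, and 466 bp before it in WT, with a fold of 25.5. Smc3 had a fold of 5.67 there in C59 and 10.3 in WT. The Hoxb8 start site in the promoter table lay further along, so the nearest summit to it was 2944 bp away in C59 and 2760 bp away in WT. The ends of Hoxb9, Hoxb7 and Hoxb6 had CTCF in WT alone. The folds were 2.78 at Hoxb9, 4.91 at Hoxb7 and 4.40 at Hoxb6. The Hoxb7 peak lay inside Hoxb8, 939 bp from Hoxb7, so both genes share it. None of these 3 peaks overlapped an Smc3 peak.

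The anterior part, from Hoxb3 to Hoxb1, was the sparsest of the cluster. Its 62.1 kb held 2 CTCF peaks in C59 and 5 in WT, and 1 Smc3 peak in C59 and 3 in WT. The density was 3.22 CTCF peaks per 100 kb in C59 and 8.05 in WT. Hoxb3 as annotated spans 40830 bp and contains Hoxb4, and the CTCF peaks called in both lines lay inside it. One, at 96311718 in C59 and 96311725 in WT, had CTCF folds of 28.7 in C59 and 34.5 in WT and Smc3 folds of 4.80 in C59 and 10.3 in WT. The other, at 96346183 in C59 and 96346213 in WT, had CTCF folds of 21.8 in C59 and 22.4 in WT, and Smc3 in WT alone with a fold of 3.78. A further Hoxb3 summit, at 96342241 with a fold of 3.20, was called in WT alone.

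Hoxb4 had no CTCF or Smc3 peak within 1 kb in any list. Its nearest CTCF summit was 6549 bp away in C59 and 6542 bp away in WT. Hoxb2, which acts in the hindbrain, had a CTCF summit inside the gene in WT alone, with a fold of 2.96. The nearest C59 CTCF summit lay 5449 bp from Hoxb2. A WT Smc3 peak 1013 bp from Hoxb2, at 96355033 with a fold of 2.33, was the only Smc3 peak of either line in the window with no CTCF peak of its line under it. Hoxb1, at the anterior end of the cluster, had a CTCF summit inside the gene in WT, at 96366817 with a fold of 5.15. This was the strongest of the 20 CTCF peaks called in WT alone. In C59 the nearest CTCF summit to Hoxb1 lay 19563 bp away, and the nearest Smc3 summit lay 39679 bp away in C59 and 10713 bp away in WT.

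Counted by genes, 2 of 10 Hoxb genes had a CTCF summit within 1 kb of either annotated end in C59, where 32.9% of 21887 protein-coding genes had one. In WT 6 of 10 had one, where the share over all genes was 38.3%. Smc3 lay at an end of 2 of 10 Hoxb genes in C59, beside 11.2% of all genes, and of 2 of 10 in WT, beside 20.8%. The genes with Smc3 were Hoxb8 and Hoxb5 in both lines, and these were also the C59 CTCF genes. Within 2.5 kb of an end, 6 Hoxb genes had CTCF in C59 and 9 in WT, where 51.1% and 56.8% of all genes had it. Smc3 lay within 2.5 kb of 4 Hoxb genes in C59 and 7 in WT, where the shares of all genes were 20.7% and 34.8%. Hoxb9, Hoxb7, Hoxb6 and Hoxb2 had CTCF at an end in WT alone, with folds between 2.78 and 4.91. The weakest WT CTCF peak of the window had a fold of 2.76, and the median was 8.58.

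**Figure D2:**
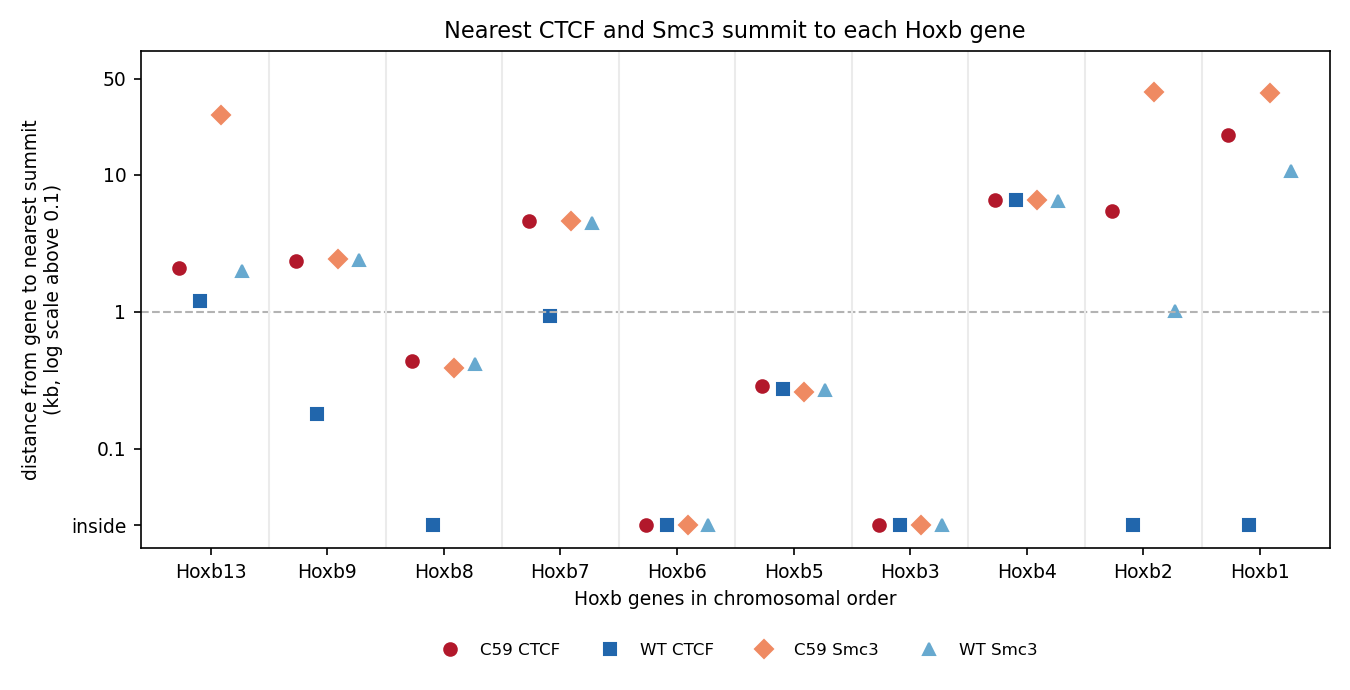
Distance from each Hoxb gene to the nearest summit of each list, in kb on a vertical axis that is logarithmic apart from its lowest part, with genes in chromosomal order on the horizontal axis; the dashed line marks 1 kb. Hoxb6 and Hoxb3 had a summit of every list inside the gene, Hoxb5 lay within 286 bp of a summit of every list, and Hoxb4 lay over 6 kb from all.

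The stretches without a peak differed along the cluster. The longest C59 CTCF gap in the window, 53.9 kb from 96346183 to 96400083, held Hoxb2 and Hoxb1, and 6.37% of the 6890 gaps between neighbouring C59 CTCF summits on chromosome 11 were as long. In WT the peaks in Hoxb2 and Hoxb1 fell inside this stretch. The gap that holds Hoxb4 was 34.5 kb in C59 and 30.5 kb in WT. For Smc3 the longest gap was 96.2 kb in C59, which held Hoxb4, Hoxb2 and Hoxb1, and 14.1% of C59 gaps on the chromosome were as long. The longest WT Smc3 gap was 52.9 kb, held Hoxb1, and had a length that 15.2% of WT gaps reached. The gaps given with a share were picked as the longest of their list in the window, so these shares do not measure rarity. Median gaps on chromosome 11 were 7.41 kb for CTCF and 21.3 kb for Smc3 in C59, and 6.41 kb and 13.0 kb in WT.

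The lines were compared by asking which peaks overlapped a peak of the same protein in the other line by at least 1 bp. Of 64 C59 CTCF peaks in the window 62 were found in WT, 96.9% (exact Clopper-Pearson 95% interval 89.2 to 99.6%), where 97.1% of the whole list was found. Of 82 WT CTCF peaks 62 were found in C59, 75.6% (64.9 to 84.4%), where the share for the whole list was 79.8%. Peaks outside the window, weighted to the same deciles of WT fold, gave 75.9%. For Smc3, 30 of 31 C59 peaks were found in WT, 96.8% (83.3 to 99.9%), where 98.1% of the list was. C59 had 30 of the 41 WT Smc3 peaks, 73.2% (57.1 to 85.8%), beside 52.9% of the whole list, 59.4% of the rest of chromosome 11 and 58.5% after weighting by fold. The intervals cover counting error only, and no test of a difference from the rest was made. The lists differ in length, and with each held to its 25734 strongest peaks the order of the lines turned round: 83.9% of C59 and 100% of WT CTCF peaks, and 77.4% of C59 and 92.3% of WT Smc3 peaks, were then found in the other line. Over the whole lists at that length the shares were 91.6% in C59 and 91.1% in WT for CTCF, and 84.4% in C59 and 83.4% in WT for Smc3.

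The WT Smc3 share differed along the window. Between the outermost Hoxb ends C59 had 6 of the 12 WT Smc3 peaks, 50.0% (21.1 to 78.9%), and in the flanks 24 of 29, 82.8% (64.2 to 94.2%). These intervals overlap. The 6 in the cluster were the peaks before Hoxb9 at 96224014 and 96235083 and those at Hoxb8, Hoxb6, Hoxb5 and Hoxb3. Their folds in WT ran from 5.91 to 15.7. Those not found lay between 2.33 and 7.06. For CTCF, 14 of 21 WT peaks between the Hoxb ends were found, 66.7% (43.0 to 85.4%), and 48 of 61 in the flanks, 78.7% (66.3 to 88.1%).

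**Figure D3:**
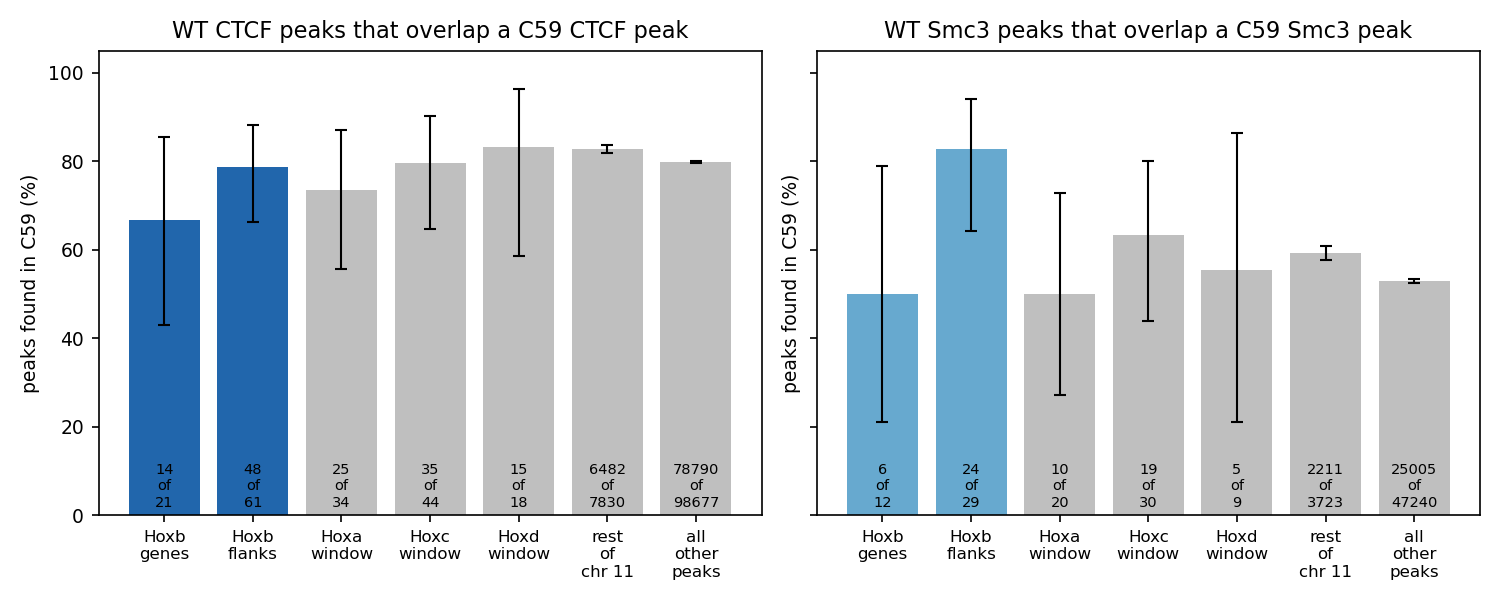
Share of WT CTCF peaks (left) and WT Smc3 peaks (right) that overlap a C59 peak of the same protein, in percent, with exact 95% intervals as bars and counts at the foot of each column. For Smc3 the Hoxb genes stand at 50.0% and the Hoxb flanks at 82.8%, beside 52.9% of all other peaks. The columns of the other Hox clusters are whole windows, genes and flanks together.

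Peaks not found in the other line had lower median folds. The WT CTCF peaks found in C59 had a median fold of 13.5, and the 20 not found a median of 3.82. The WT Smc3 peaks found in C59 had a median fold of 7.77, and the 11 not found a median of 4.11, with the highest of them, 7.06, above the median of 5.98 over all WT Smc3 peaks of the window. Outside the window the contrast was similar. The medians there were 12.9 for WT CTCF peaks found and 4.17 for those not found, and 8.33 and 4.24 for WT Smc3. Where a peak was called in both lines, its place was nearly the same. The CTCF summits of the lines lay a median of 17 bp apart, and 61 of 62 pairs lay within 100 bp. Smc3 summits lay a median of 24 bp apart. Outside the window these medians were 17 bp for CTCF and 28 bp for Smc3, and the share within 100 bp was not taken there. Pairs were defined by overlap, which by itself keeps summits close.

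**Figure D4:**
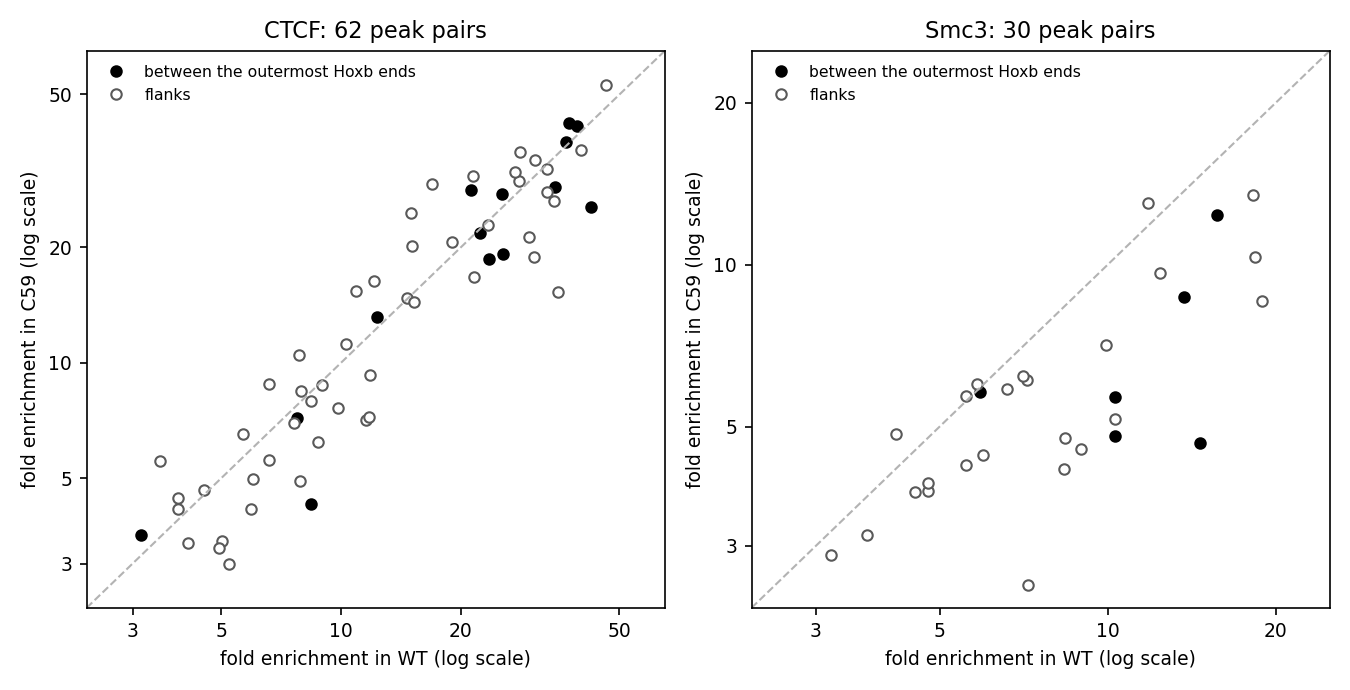
Fold enrichment in C59 (vertical, log scale) against WT (horizontal, log scale) for the 62 CTCF and 30 Smc3 peak pairs of the window, filled between the outermost Hoxb ends and open in the flanks; the dashed line marks equal values. The CTCF pair highest on both axes has 53.1 in C59 and 46.2 in WT. The folds come from lists called separately, so the distance from the line is not a measured change.

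Smc3 in the window lay on CTCF. All 31 C59 Smc3 peaks overlapped a C59 CTCF peak, where 97.9% of the list did, and 40 of 41 WT Smc3 peaks overlapped a WT CTCF peak, where 95.2% did. In the other direction, 30 of 64 C59 CTCF peaks had Smc3, 46.9% (34.3 to 59.8%), beside 30.0% of the whole list. In WT 40 of 82 had it, 48.8% (37.6 to 60.1%), beside 44.3%. Peaks outside the window weighted to the same deciles of fold gave 34.9% in C59 and 43.4% in WT. In C59, CTCF peaks that overlapped Smc3 had a median fold of 25.9 and the others 6.73. In WT these medians were 22.8 and 4.53. Outside the window they were similar, 27.3 and 7.38 in C59 and 21.1 and 5.64 in WT. The shares move with the rule. At a common list length of 25734 peaks, Smc3 lay on 83.9% of CTCF peaks in C59 and 84.6% in WT, beside 75.6% and 77.9% of the lists at that length. When the peaks had to share 50% of both their lengths, it lay on 15.6% in C59 and 37.8% in WT, beside 16.4% and 31.7% of the whole lists. The median distance from a CTCF summit to that of the overlapping Smc3 peak was 16.5 bp in C59 and 30.5 bp in WT. Outside the window it was 24 bp in C59 and 27 bp in WT.

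The strongest CTCF peak of the window lay in the flank before Hoxb13, between the small RNA gene Gm22423 and Calcoco2, which encodes an autophagy receptor. Its summit was at 96093593 in C59, with a fold of 53.1 and rank 384 in its list, and at 96093576 in WT, with a fold of 46.2 and rank 571. Smc3 had a fold of 10.3 there in C59 and 18.4 in WT. The Ttll6 promoter printed above had CTCF folds of 35.9 in C59 and 40.0 in WT and Smc3 folds of 4.24 in C59 and 5.57 in WT. Before that start, but still within the annotated Ttll6 gene, a summit at 96127171 in WT had a CTCF fold of 15.3 in C59 and 35.0 in WT, and Smc3 folds of 2.54 in C59 and 7.19 in WT. The strongest WT Smc3 peak, at 96145812 in Ttll6, had a fold of 8.55 in C59 and 18.9 in WT. The strongest C59 Smc3 peak lay near the small nucleolar RNA gene Gm24949, with a fold of 13.5 in C59 and 18.2 in WT.

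Beyond Hoxb1 the strongest C59 CTCF peak lay in Skap1, which encodes an adaptor protein of T cells. Its summit was at 96553374 in C59, and its CTCF folds were 35.4 in C59 and 28.2 in WT, with Smc3 folds of 13.0 in C59 and 11.8 in WT. The first site beyond Hoxb1 with both proteins, at 96407921 in C59, had CTCF folds of 33.7 in C59 and 30.7 in WT and Smc3 folds of 9.64 in C59 and 12.4 in WT. CTCF was called in C59 alone at 96041070 in Snf8, with a fold of 3.59, and at 96050132 in Ube2z, with a fold of 4.50. The one C59 Smc3 peak not found in WT, at 96111837 in Calcoco2 with a fold of 3.84, lay inside a CTCF peak that both lines shared. In the flanks the strongest peaks called in WT alone were CTCF at 96437987, with a fold of 4.95, and Smc3 at 96454251, with a fold of 5.34.

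Of 23 other genes with an annotated end in the window, 8 were protein-coding, and 4 of these had a CTCF summit at an end in C59 and 7 in WT, beside 32.9% and 38.3% of all protein-coding genes. Ube2z, a ubiquitin-conjugating enzyme gene, had CTCF at its start with folds of 11.2 in C59 and 10.3 in WT. Atp5g1, which encodes a subunit of the mitochondrial ATP synthase, had 6.22 in C59 and 8.73 in WT. The far end of Ttll6 had CTCF folds of 7.10 in C59 and 11.6 in WT, with Smc3 in WT alone at 3.61. The far end of Skap1, which lies outside the window, had CTCF folds of 16.9 in C59 and 41.9 in WT and Smc3 folds of 3.39 in C59 and 13.6 in WT. Igf2bp1, Snf8, Calcoco2, Gm30084, Hoxb5os and Hoxb3os had CTCF at an end in WT alone, with folds between 2.96 and 4.57. Igf2bp1 also had Smc3 there in WT alone, at 3.11, and this end too lies outside the window.

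Windows made in the same way around the other Hox clusters held fewer peaks. The Hoxa window had 25 CTCF peaks in C59 and 34 in WT, the Hoxc window 37 in C59 and 44 in WT, and the Hoxd window 18 in each line. Per 100 kb this was 4.95 in C59 and 6.73 in WT for Hoxa, 7.17 and 8.53 for Hoxc, and 3.62 in both lines for Hoxd, beside 11.2 and 14.3 for Hoxb. The windows lie on different chromosomes. Density over a whole chromosome was taken for chromosome 11 alone, at 5.80 in C59 and 6.66 in WT. The part of the chromosome in the difference between windows was not tested. Between the outermost genes themselves the density of CTCF peaks in C59 was lowest for Hoxb, at 8.05 per 100 kb, beside 9.48 for Hoxa, 8.64 for Hoxc and 9.29 for Hoxd. In WT it was 12.1 for Hoxb, beside 11.4 for Hoxa, 8.64 for Hoxc and 9.29 for Hoxd. These densities rest on 14 C59 and 21 WT peaks for Hoxb and on 9 to 12 peaks for each of the others. C59 had a counterpart for 10 of 20 WT Smc3 peaks in the Hoxa window, for 19 of 30 in Hoxc and for 5 of 9 in Hoxd. The Hoxb window had 30 of 41, and the share over the whole list was 52.9%. Between the outermost genes alone C59 had a counterpart for 4 of 7 in Hoxa, 3 of 8 in Hoxc and 3 of 4 in Hoxd, beside 6 of 12 in Hoxb.

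Hox proteins bind DNA with cofactors of the Pbx, Meis and Pknox families. Of 9 cofactor genes 2 had CTCF at an end in C59 and 4 in WT, beside 32.9% and 38.3% of all protein-coding genes. Smc3 lay at 2 of the 9 in each line, beside 11.2% of all genes in C59 and 20.8% in WT. Pknox2 had CTCF folds of 28.4 in C59 and 31.6 in WT and Smc3 folds of 6.64 in C59 and 7.36 in WT. Pbx4 had CTCF folds of 6.54 in C59 and 9.18 in WT. Meis2 and Pbx2 had CTCF in WT alone, at 4.52 and 3.74, and Meis2 had Smc3 in both lines, at 4.21 in C59 and 3.47 in WT.

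Retinoic acid receptors, Cdx factors and Egr2 act upstream of Hox genes, and Cyp26 enzymes break retinoic acid down. Of 11 such upstream regulators 5 had CTCF at an end in each line, beside the same 32.9% in C59 and 38.3% in WT. Smc3 lay at 1 of them in C59 and 3 in WT, beside 11.2% and 20.8%. Rara, the retinoic acid receptor alpha gene, had CTCF folds of 26.5 in C59 and 26.4 in WT and Smc3 folds of 8.73 in C59 and 12.8 in WT. Rarg had CTCF at 9.70 in C59 and 8.27 in WT, and Smc3 at an end in WT alone, at 2.86. The Egr2 CTCF peak counted in C59 alone, at 8.85, overlapped a WT peak of 40.3 with its summit 1696 bp from the gene end, past the limit of 1 kb. Egr2 had Smc3 at an end in WT alone, at 4.65. In C59 the Smc3 summit inside Egr2 lay 1704 bp from the end, with a fold of 6.08.

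Polycomb proteins keep silent Hox genes repressed, and Kmt2a keeps active ones on. Of 15 genes of these complexes 6 had CTCF at an end in each line, and Smc3 lay at 1 in C59 and 3 in WT. These counts are near the shares over all genes, 32.9% in C59 and 38.3% in WT for CTCF and 11.2% in C59 and 20.8% in WT for Smc3. Cbx2 had CTCF folds of 27.3 in C59 and 35.3 in WT, and Ezh1 had 17.0 in C59 and 22.5 in WT. Phc1 had Smc3 folds of 4.19 in C59 and 5.89 in WT. Suz12 had Smc3 in WT alone, at 3.40. The Cbx7 Smc3 peak counted in WT alone, at 4.92, overlapped a C59 peak of 4.75 with its summit 1159 bp from the end.

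At the left edge of the window, the outermost CTCF summit inside lay 42 bp from the edge in C59, with a fold of 20.1, and 32 bp from it in WT, with a fold of 15.1. The nearest summit outside lay 1278 bp away in C59, with a fold of 3.49, and 1253 bp away in WT, with a fold of 3.20. At the right edge the inside summits lay 3968 bp away in C59 and 3987 bp away in WT, with folds of 29.2 and 17.0, and the outside ones 4446 bp away in C59 and 4453 bp away in WT, with folds of 25.4 and 18.1.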

How the data were processed

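Per the labels' protocols, JM8.N4 cells were cross-linked with formaldehyde and sonicated, and the reads were single-end, of 50 bases. Of 8 libraries, 4 had a peak list, and those of input and IgG are not used here. The labels' extraction protocol names an antibody against Rad21, whereas each Smc3 library's antibody label names Smc3, which was followed. Tools in the submitters' processing notes are MACS2 2.1.0.20140616, Bowtie 0.12.8, deepTools 2.4.1, FastQC 0.10.1 and CASAVA, with the build mm10 and with neither role nor order. The control and the threshold of peak calling, and the depth of the libraries, are not given in the sources used here.

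The deposited lists give each peak's pileup signal, p-value, q-value and fold enrichment, a ratio over background, all as the authors' caller computed them per library. Here peaks were placed by summit, and overlaps of at least 1 bp were counted with Python 3.11.15, pandas 2.3.3 and scipy 1.17.1, after the counting was tested on simulated data. Figures used matplotlib 3.10.9. The local background of a peak was taken as its signal plus 1, divided by its fold, minus 1, and set against autosomes other than 1, 8 and 11. All 10 Hoxb genes matched the RefSeq GRCm38.p6 table, whose gene ends carry no strand. An end peak has its summit within 1 kb of either end.

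Named were all Hoxb genes, other window genes with an end peak, every peak between the outermost Hoxb ends, the 3 strongest flank peaks of each list, the strongest peak of each list with no counterpart, Smc3 peaks without CTCF and, per pathway list, at most 2 genes with an end peak in C59 and WT and at most 2 with one in a single line. One gene that this rule names is not reported here. The Ttll6 and Ube2z promoters were chosen after their values were seen. The members and lists were chosen with earlier results of these data known. No test was run, since each protein had 1 library in each line. Alternatives changed the overlap rule, q threshold, list length, flank, end distance and background.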

Additional observations from a re-analysis of the deposited data

How the results depend on the processing

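Of 68 values recomputed, 30 stayed within their counting interval or within 1.5 times of the count, and 38 moved beyond that. With each list held to its 25734 strongest peaks by p, the window held 31 CTCF peaks in C59 and 26 in WT, and 26 Smc3 peaks in WT. The share of C59 CTCF peaks found in WT was then 83.9% and of WT ones found in C59 100%, that of C59 Smc3 peaks found in WT 77.4% and of WT ones found in C59 92.3%, and Smc3 lay on 83.9% of CTCF peaks in C59 and 84.6% in WT. For the peaks found in the other line, the order of C59 and WT was thus the reverse of that in the full lists. With 50% of both peaks shared, Smc3 lay on 15.6% of C59 CTCF peaks. With a −log10 q of at least 10, 100% of C59 Smc3 peaks were found in WT. A flank of 100 kb gave 35 CTCF and 17 Smc3 peaks in C59, 49 and 26 in WT, and 100% of C59 CTCF peaks found. No flank gave 14 and 6 in C59, 21 and 12 in WT, 100% of C59 CTCF and 100% of C59 Smc3 peaks found, and 50.0% of WT Smc3 peaks found. Gene ends widened to 2.5 kb gave 6 Hoxb genes with CTCF in C59, and with Smc3 4 in C59 and 7 in WT. At 10 kb there were 9 with CTCF in C59 and 10 in WT, and with Smc3 7 in C59 and 9 in WT. Start sites alone, known for 3 of 10 Hoxb genes, gave 0 in each of the 4 lists. The shares of all protein-coding genes at 10 kb and at start sites alone were not taken. The Hoxb counts under these rules therefore have no comparison. Against chromosome 11, the share of peaks outside the window found in the other line was 96.0% for C59 CTCF, 82.8% for WT CTCF, 96.2% for C59 Smc3 and 59.4% for WT Smc3. Apart from what each alternative does by construction (fewer peaks, a shorter region, a wider end), the cause was not tested. No paired analysis was possible because each line and protein had 1 library, and for the same reason no replicate could be left out. Depth is unknown, so weak peaks called in 1 line cannot be set against the number of reads.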
